A study of Mus musculus with 10 samples.

Results

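The genes described here are 41 genes of fatty acid oxidation, the breakdown of fatty acids to acetyl-CoA, measured in mouse infrarenal aorta after infusion with porcine pancreatic elastase (PPE) or saline. They were chosen by name from enzymes, acyl-CoA synthetases, transporters, thioesterases and the regulator Ppara, and matched to the gene names printed on the array, with Eci1 and Eci2 found under the older names Dci and Peci. All 41 were among the 35527 gene names of the array. Of these, 40 could be tested, among 22520 tested names in all, where tested means that a probe was well above background in the aortic channel on at least 5 of the 10 arrays. Acot3 was the exception. By place of their products, 20 were mitochondrial, 8 peroxisomal, 3 (Ech1, Eci2 and Crat) known from both organelles, and 10 of another place or role.

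Each array held RNA of 1 male C57BL/6J mouse, 10 weeks old and on a normal diet, with 5 sham and 5 PPE mice. In both groups the infrarenal aorta was tied off, opened at the bifurcation and filled at 100 mmHg for 5 min. The sham group received saline, and the PPE group saline with 1.5 U/mL type I porcine pancreatic elastase, a protease that damages the elastic layers of the wall. The whole infused segment was taken at day 7. As a model of abdominal aortic aneurysm this is an acute injury of a healthy vessel. Per the study's methods, surrounding fat and connective tissue were dissected away under a microscope before freezing. Aortic RNA was labelled with Cy5 (red) and a universal mouse reference RNA with Cy3 (green), in every case, so that each value is a log2 ratio of aorta over reference. A log2 fold change is the PPE mean minus the sham mean, and a gene was called lower or higher where limma's adjusted p was under 0.01.

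Fatty acids enter a cell through transport proteins and are joined to coenzyme A by acyl-CoA synthetases. The carnitine shuttle (Cpt1, Cpt2) carries long chains into mitochondria, where a dehydrogenase, a hydratase, a second dehydrogenase and a thiolase shorten the chain in repeated rounds, and electrons pass through the electron transfer flavoprotein to the respiratory chain. Peroxisomes shorten very long and branched chains with their own oxidases, bifunctional enzymes and thiolases. Heart, skeletal muscle and brown fat rely heavily on the mitochondrial route, and the nuclear receptor PPARα, encoded by Ppara, switches on many of its genes.

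Before the results, 3 features of the arrays are given. The share of spots well above background in the red channel ran from 37.6% (sham 5) to 65.8% (PPE 1), and sham 5 held the lowest of the 5 sham values for 33 of the 40 tested members. Leaving out sham 5 and PPE 5, the faintest array of each group, gave 28 members lower and 3 higher, so the main counts did not rest on those arrays. Arrays of both groups shared a slide in 2 cases (sham 1 with PPE 1 and 2, and sham 2 and 3 with PPE 3 and 4). On each of these slides all 29 called members differed between the groups in the same direction as over all arrays. For every called member but Ehhadh the groups did not overlap, which fixes that direction, so this is no separate check on slide effects. Smooth muscle markers, which define the labelled tissue, were well measured, with a mean log2 ratio over 10 genes from 3.02 to 4.19 on the sham arrays and from 1.54 to 2.69 on the PPE arrays.

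Of the 40 tested members, 27 were lower in PPE and 2 higher (Acsl4 and Acox3), while 11 were not called. Over all tested names, 9.96% were called lower and 13.9% higher, against 67.5% and 5% of the members. The median log2 fold change of the members was -1.35, with a range from -3.95 to 0.89, and the median of all tested names was 0.02. For 28 of the 40 members no PPE array fell within the sham range or the reverse, which held for 25.5% of all tested names. Since bulk RNA was measured, fewer cells of one type and less RNA per cell cannot be told apart. The calls depended on the normalisation within arrays. With each array centred on its median log ratio and no loess curve, the median of all names moved to 0.41, 1 member (Slc27a2) was called lower and 0 higher by limma (15 lower and 1 higher at an unadjusted p under 0.05), and over all names 8 were lower and 408 higher. Relative to the median of all names, the members' median was -1.37 with loess and -1.19 with median centring. Of the 40 members, 34 lay below 0 with loess and 28 with median centring, and the 6 that turned (Acaa1a, Acaa1b, Hsd17b4, Decr2, Acot1 and Acsl3) were not called in either.

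**Figure D1:**
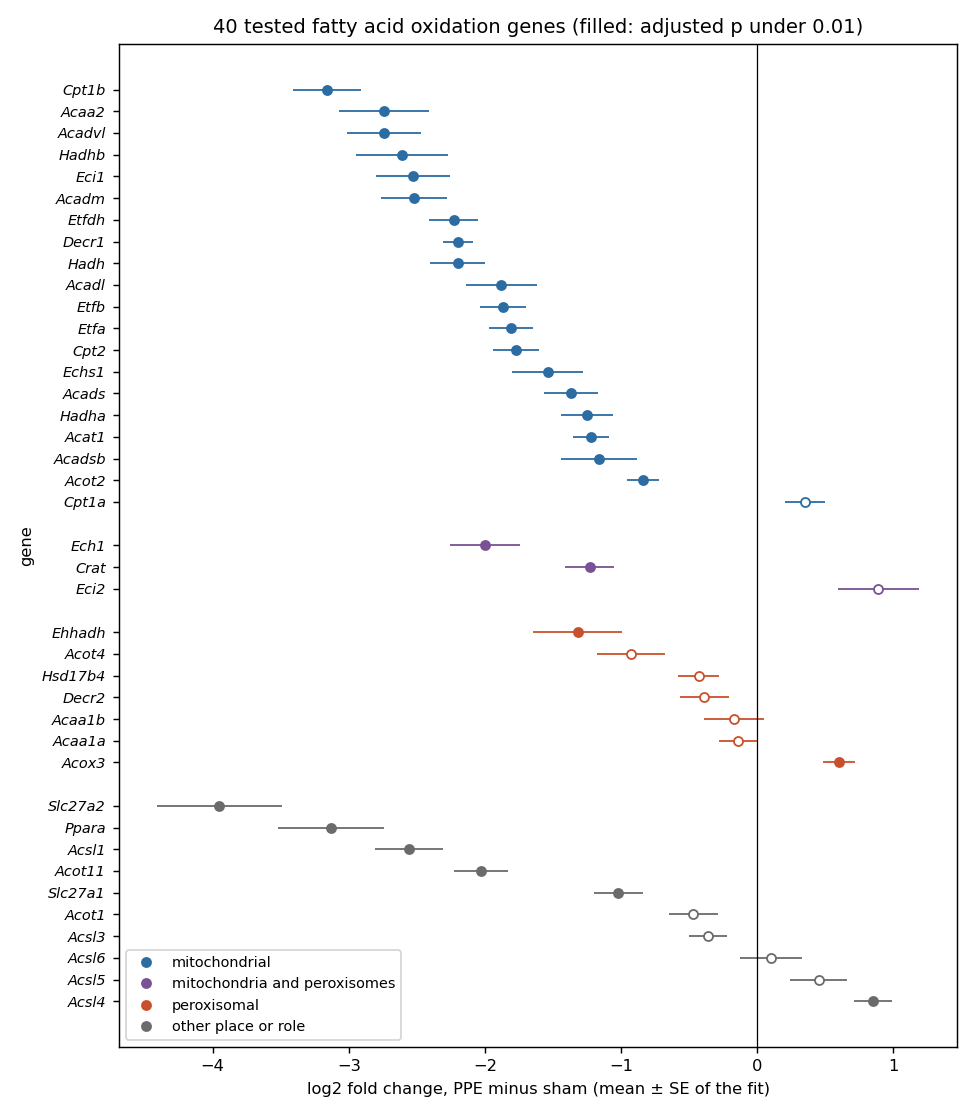
Log2 fold change (PPE minus sham, x axis) with the standard error of the limma fit for the 40 tested genes, grouped by the place of the protein. Filled points passed an adjusted p under 0.01, and 19 of the 20 mitochondrial genes lie left of 0 while 6 of the 7 tested peroxisomal genes lie between -1.32 and 0 (4 of these 6 turned positive with median centring).

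Among genes that take up and activate fatty acids, the transporters Slc27a2 and Slc27a1 and the synthetase Acsl1 fell, and the synthetase Acsl4 rose. Slc27a2 encodes a transport protein that also activates very long chains. Its log2 ratios were 5.95, 4.84, 4.90, 5.44 and 3.03 in sham 1 to 5 and 0.78, 1.33, 0.66, 1.40 and 0.24 in PPE 1 to 5. No PPE array reached the lowest sham array, and the fold change of the ratio was the largest of the tested members at -3.95 (SE 0.46, adjusted p = 5.5e-05, limma), a 15.4-fold lower ratio. Its probe was well above background on 4 of 5 PPE arrays, and in the red channel alone, described further on, Slc27a2 fell by 3.72 and Ppara by 3.92. Slc27a1, the transporter of muscle and fat cells, had 1.41, 0.98, 0.68, 1.45 and 1.22 in sham and 0.19, 0.40, -0.36, 0.16 and 0.25 in PPE, also without overlap (-1.02, SE 0.18, adjusted p = 0.00101).

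Acsl1 encodes the main long-chain synthetase of fat, heart and liver. It stood at 5.25, 4.70, 4.92, 4.90 and 3.95 in sham and at 2.49, 2.52, 1.84, 2.42 and 1.64 in PPE, a fall of 2.56 on the log2 scale (SE 0.25, adjusted p = 1.62e-05). Acsl4, the synthetase that prefers arachidonic acid, went the other way. Its values were -1.35, -1.11, -1.30, -1.67 and -1.04 in sham and -0.54, -0.62, -0.57, -0.38 and -0.12 in PPE, so that every PPE array was above every sham array (0.85, SE 0.14, adjusted p = 0.000738). The remaining synthetases, Acsl3 (-0.36, and 0.04 with median centring), Acsl5 (0.45) and Acsl6 (0.10), were not called, and their groups overlapped. Thus the 5 synthetases held 1 called lower, 1 called higher and 3 without a call.

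Slc27a2 is the first of the members whose promoter is shown, because its ratio changed most. Promoters of 35 of the 41 members matched a RefSeq table (build GRCm38.p6), 42 windows in all, and the 250 bases before the start site were searched on both strands for AAGGTCA, the half-site of estrogen-related receptors, and for the AGGTCA within it, the half-site shared by many nuclear receptors including the PPARs. AAGGTCA stood in 4 of 42 member windows (9.52%) and in 4.08% of all 32851 windows, and AGGTCA in 16.7% and 14%. Among windows of members called lower the shares were 7.69% and 15.4%, and among those of the other members 12.5% and 18.8%. Besides Slc27a2 and Acadm, which were called lower, AAGGTCA stood in windows of Acot4 and Acsl6, which were not called. In the Slc27a2 window, at chr2:126552774-126553023 on the + strand, capitals mark the match, which lies 220 bases before the start and reads on the opposite strand.
Slc27a2: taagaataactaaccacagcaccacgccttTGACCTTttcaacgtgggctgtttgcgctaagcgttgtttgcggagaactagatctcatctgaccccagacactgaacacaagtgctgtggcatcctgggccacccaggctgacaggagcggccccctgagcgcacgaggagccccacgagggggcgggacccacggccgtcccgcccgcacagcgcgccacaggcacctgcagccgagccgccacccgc

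In the carnitine shuttle, the muscle form of carnitine palmitoyltransferase I fell and the liver form did not. Cpt1b, the form of muscle and brown fat, had log2 ratios of 3.75, 2.95, 2.97, 3.45 and 2.51 in sham and -0.56, 0.30, -0.11, 0.45 and -0.27 in PPE, a fold change of -3.16 (SE 0.25, adjusted p = 3.66e-06). Its second probe gave -2.92, and the ratios as deposited gave -3.92. Cpt1a, the form found in liver and most tissues, had 0.93, 0.86, 0.95, 1.03 and 0.69 in sham and 1.58, 1.45, 0.95, 1.30 and 0.90 in PPE. The PPE values lay among or above the sham values, and the difference of 0.35 (SE 0.15) was not called (adjusted p = 0.0904). Cpt1a was the only one of the 20 mitochondrial members not called. Cpt2, which returns the acyl group to coenzyme A inside the mitochondrion, fell by 1.77 (SE 0.17), with sham arrays from 1.52 to 2.55 and PPE arrays from 0.18 to 0.52. Crat, which moves acetyl groups between coenzyme A and carnitine in both organelles, fell by 1.23, with 3 of 5 PPE arrays well above background. The size for Crat depended on the treatment of background, at -1.54 with an offset of 16 and -2.47 with the deposited ratios, both called lower. The Cpt1a window is shown as an example from a member that was not called. It lies at chr19:3323051-3323300 on the + strand and holds AGGTCA once, on the opposite strand (capitals), and no AAGGTCA.
Cpt1a: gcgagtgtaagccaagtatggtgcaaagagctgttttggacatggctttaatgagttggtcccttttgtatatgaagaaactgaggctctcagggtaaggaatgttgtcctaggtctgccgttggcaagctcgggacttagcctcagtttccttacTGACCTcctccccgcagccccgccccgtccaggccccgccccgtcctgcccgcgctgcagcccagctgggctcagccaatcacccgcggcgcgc

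All 5 acyl-CoA dehydrogenases among the members were lower in PPE. These enzymes take the first electrons from the chain and differ in the length or branching they accept. Acadvl, for very long chains, had 3.28, 2.75, 2.89, 3.02 and 1.61 in sham and -0.04, 0.17, -0.10, 0.14 and -0.32 in PPE (-2.74, SE 0.27, adjusted p = 1.49e-05). Acadm, for medium chains, had 3.47, 2.93, 3.26, 3.46 and 2.11 in sham and 0.44, 0.74, 0.44, 0.77 and 0.22 in PPE (-2.52, SE 0.24, adjusted p = 1.45e-05). For both genes the PPE arrays lay within 0.55 log2 units of each other and sham 5 was the lowest sham array. Acadl, for long chains, fell by 1.88 and Acads, for short chains, by 1.37. Acadsb, for short branched chains, was lower by 1.16 in the fit (adjusted p = 0.00644), but its second probe gave -0.07, and the call was lost with the mean of both probes (-0.61, adjusted p = 0.0104) and without any 1 of sham 1, sham 2, sham 3, sham 4, PPE 2 or PPE 3 (adjusted p = 0.0105 to 0.0179). The Acadm window, at chr3:153944644-153944893 on the - strand, has the AAGGTCA match at its far edge, 249 bases before the start and on the opposite strand.
Acadm: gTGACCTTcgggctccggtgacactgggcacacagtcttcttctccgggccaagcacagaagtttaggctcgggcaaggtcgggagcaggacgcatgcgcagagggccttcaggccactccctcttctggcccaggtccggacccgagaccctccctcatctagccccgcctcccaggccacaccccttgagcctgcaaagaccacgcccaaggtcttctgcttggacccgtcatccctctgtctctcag

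The 3 genes that pass the electrons on fell together. Etfdh, whose product hands them to ubiquinone, had 2.69, 2.26, 2.35, 2.63 and 1.77 in sham and 0.15, 0.37, -0.21, 0.10 and 0.12 in PPE (-2.23, SE 0.18, adjusted p = 3.63e-06). The flavoprotein's subunit genes Etfa (-1.81, SE 0.16) and Etfb (-1.87, SE 0.17) fell to a like extent, and the 3 genes had no overlap between groups.

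The later steps of each round were lower as well. Hadha and Hadhb encode the α and β subunits of the mitochondrial trifunctional protein, which carries out the last 3 steps on long chains. Hadhb had 3.83, 2.98, 3.72, 3.57 and 2.05 in sham and 0.63, 0.95, 0.69, 0.96 and -0.16 in PPE (-2.61, SE 0.34, adjusted p = 0.000109). Hadha had 1.31, 0.83, 0.94, 1.19 and 0.24 in sham and -0.30, -0.12, -0.61, -0.39 and -0.34 in PPE (-1.25, SE 0.19, adjusted p = 0.000322). Both genes were lower on every PPE array than on any sham array. They lie head to head on chromosome 5 with start sites 273 bases apart (GRCm38.p6). Most of this interval is the window before the Hadhb start, at chr5:30155003-30155252 on the + strand, shown because the 2 genes share it. It holds neither motif.
Hadhb: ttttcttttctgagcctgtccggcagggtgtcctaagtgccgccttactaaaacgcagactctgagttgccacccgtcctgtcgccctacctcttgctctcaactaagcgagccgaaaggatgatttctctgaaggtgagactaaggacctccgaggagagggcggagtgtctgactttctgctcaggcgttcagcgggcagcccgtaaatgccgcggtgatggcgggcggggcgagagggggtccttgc

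For shorter chains, Acaa2, a mitochondrial thiolase, had 3.97, 3.23, 3.56, 3.67 and 1.98 in sham and 0.68, 0.81, 0.46, 0.76 and -0.02 in PPE (-2.74, SE 0.33, adjusted p = 6.45e-05). Hadh, the short-chain hydroxyacyl-CoA dehydrogenase, fell by 2.20, Echs1, the short-chain hydratase, by 1.54, and Acat1, the acetoacetyl-CoA thiolase, by 1.22. Auxiliary enzymes handle double bonds in unsaturated chains. Eci1, an enoyl-CoA isomerase, had 2.61, 1.91, 2.40, 2.63 and 1.38 in sham and -0.29, 0.11, -0.60, 0.00 and -0.93 in PPE (-2.53, SE 0.27, adjusted p = 2.98e-05). Decr1, the mitochondrial dienoyl-CoA reductase, had the smallest adjusted p of all members. Its sham values of 4.21, 3.97, 3.82, 3.89 and 3.72 and PPE values of 1.65, 1.81, 1.75, 1.75 and 1.63 were far apart (-2.20, SE 0.11, adjusted p = 2.7e-07), and a second probe of Decr1 gave -1.16.

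Ech1, a dienoyl-CoA isomerase of both organelles, fell by 2 on the log2 scale. Eci2, an isomerase of both organelles, gave different answers from its 3 tested probes. The brightest probe, which stands for the gene, gave 0.89 (SE 0.30, adjusted p = 0.0409, not called), another 0.03 and the third -0.74. The array's annotation (mm9, chromosome 13) places the first at 35097340 to 35097399 and the third at 35069638 to 35069697, on the - strand, and assigns them to different transcripts, so the level of Eci2 was not settled by these probes. Of the mitochondrial thioesterases, which free fatty acids from coenzyme A, Acot2 fell by 0.84 (SE 0.12, adjusted p = 0.000297).

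Most peroxisomal members were not called. Of 7 tested, 1 was called lower (Ehhadh) and 1 higher (Acox3), or 14.3% each. These shares are near those of all tested names, 9.96% lower and 13.9% higher. The median fold change was -0.39, which turned to 0.30 with median centring (-0.10 relative to all names there). The 20 mitochondrial members had 19 called lower and a median of -1.87, or -1.11 with median centring (-1.52 relative to all names). This contrast covers the listed members only. Of 24 further oxidation enzymes of several places, described further on, 11 were lower and 13 not called. The peroxisomal genes Abcd3 (-1.39) and Pecr (-1.31) were among those lower. Ehhadh encodes the bifunctional enzyme, and its values were 3.20, 2.45, 2.44, 2.92 and 1.79 in sham and 1.80, 2.01, 0.91, 1.14 and 0.34 in PPE. The groups overlapped, and the fold change of -1.32 (SE 0.33) passed narrowly (adjusted p = 0.00906). The call was lost without any 1 of sham 1, sham 2, sham 3, sham 4, PPE 3, PPE 4 or PPE 5 (adjusted p = 0.0152 to 0.0267). Acox3, an oxidase of branched chains, had 0.87, 0.90, 0.77, 0.76 and 0.58 in sham and 1.49, 1.62, 1.35, 1.37 and 1.05 in PPE (0.60, SE 0.12, adjusted p = 0.00246). Its other probes gave 0.04 and 0.18, and the mean of its probes was not called (0.27, adjusted p = 0.288).

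The thiolase Acaa1a had 1.38, 1.31, 1.10, 1.41 and 0.87 in sham and 1.03, 0.89, 1.29, 0.91 and 1.26 in PPE, with full overlap (-0.14, SE 0.14, adjusted p = 0.477). Decr2, the peroxisomal dienoyl-CoA reductase, had -0.66, -0.52, -1.09, -0.43 and -0.50 in sham and -1.24, -1.03, -1.09, -1.36 and -0.45 in PPE (-0.39, SE 0.18, adjusted p = 0.124). Both of these small differences turned positive with median centring, to 0.69 and 0.20. Acaa1b (-0.17), Hsd17b4 (-0.43) and the cytosolic thioesterase Acot1 (-0.47) were not called, and they too turned positive there, to 0.42, 0.30 and 0.14. The thioesterase Acot4 (-0.93, adjusted p = 0.0137) was not called either. Acaa1a with Acaa1b, and Acot1 to Acot4, are related copies, and the probes may not tell them apart.

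Ppara itself had log2 ratios of 5.27, 4.16, 3.69, 4.23 and 2.91 in sham and 0.69, 1.77, 0.65, 1.05 and 0.43 in PPE. The lowest sham value was above the highest PPE value, and the fold change was -3.13 (SE 0.39, adjusted p = 8.43e-05). Its other probes gave -3.1 and -1.03, and the mean of its probes -2.42.

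**Figure D2:**
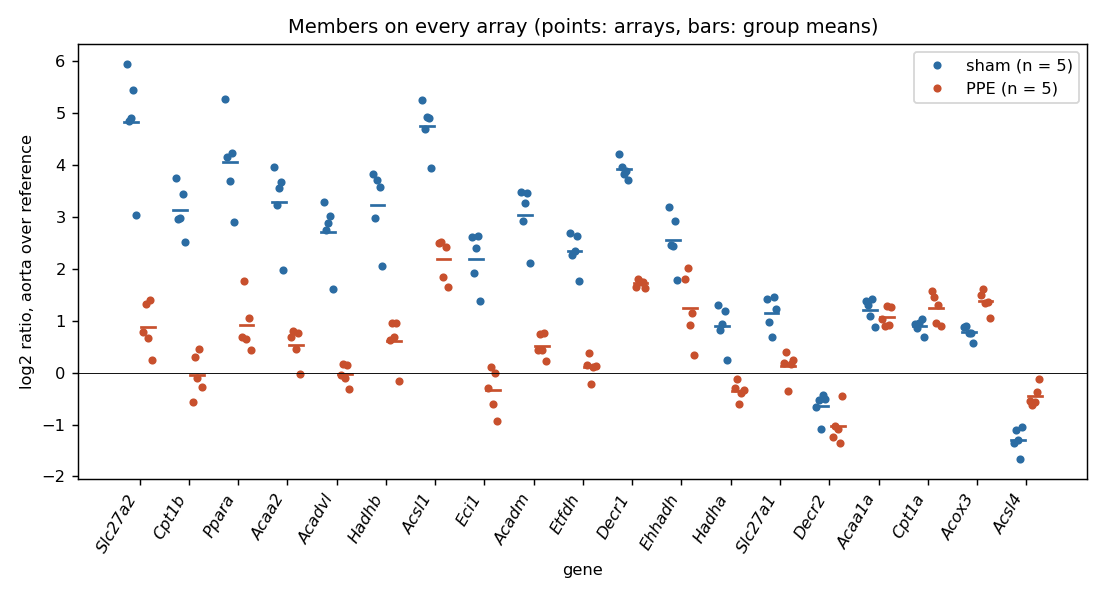
Log2 ratio of aorta over reference (y axis) on each of the 10 arrays for 19 members, ordered by fold change, with bars at the group means. The sham and PPE points of Slc27a2 at the left are separated (3.03 the lowest sham value, 1.40 the highest PPE value), and Acsl4 and Acox3 at the right are higher in PPE.

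The members with muscle or brown fat isoforms were set against the others. Cpt1b, Slc27a1 and Acot11, a thioesterase induced in brown fat (-2.03, SE 0.20, adjusted p = 1.63e-05), were all 3 lower, with a median of -2.03. Adding Acsl1 and Acot2 gave 5 of 5 lower and the same median. Of the 37 other tested members, 24 were lower, with a median of -1.32.

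To ask whether related members changed by different amounts, the log2 ratio of one was subtracted from that of the other on the same array, and the difference was compared between groups with an exact two-sided permutation test, adjusted over 6 pairs. With 5 against 5 arrays the smallest p that the 252 relabellings can give is 0.00794. The pairs were chosen with earlier results of these data known, so these p-values are not independent evidence. Cpt1b minus Cpt1a was 2.82, 2.09, 2.02, 2.42 and 1.82 in sham and -2.14, -1.15, -1.06, -0.85 and -1.17 in PPE. The sign of the difference was turned on every PPE array, a shift of -3.51 (exact p = 0.00794, adjusted p = 0.00952). Slc27a1 minus Slc27a2 was -4.54, -3.85, -4.22, -3.98 and -1.80 in sham and -0.58, -0.92, -1.02, -1.24 and 0.01 in PPE, a shift of 2.93. Here the member of muscle and fat fell less than Slc27a2.

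Acsl1 minus Acsl4 shifted by -3.42, from between 4.99 and 6.60 in sham to between 1.76 and 3.13 in PPE. In both pairs of single-step enzymes the mitochondrial member changed more than its peroxisomal counterpart. Acaa2 minus Acaa1a shifted by -2.60, from 1.11 to 2.59 in sham to -1.28 to -0.08 in PPE, and Decr1 minus Decr2 by -1.81, from 4.22 to 4.91 in sham to 2.08 to 3.1 in PPE. Each of these 4 shifts after the first had the same exact p of 0.00794 (adjusted 0.00952), and none of the 5 overlapped. Hadha minus Ehhadh, the multifunctional enzymes of the 2 organelles, did not differ detectably, at -1.66 ± 0.16 (SD, n = 5) in sham and -1.59 ± 0.59 in PPE (shift 0.07, exact permutation p = 0.857). That result depended on the reference channel: the green signal of Ehhadh differed between groups by -0.85, and in the red channel alone the pair shifted by 0.77 (exact permutation test, adjusted p = 0.0238).

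**Figure D3:**
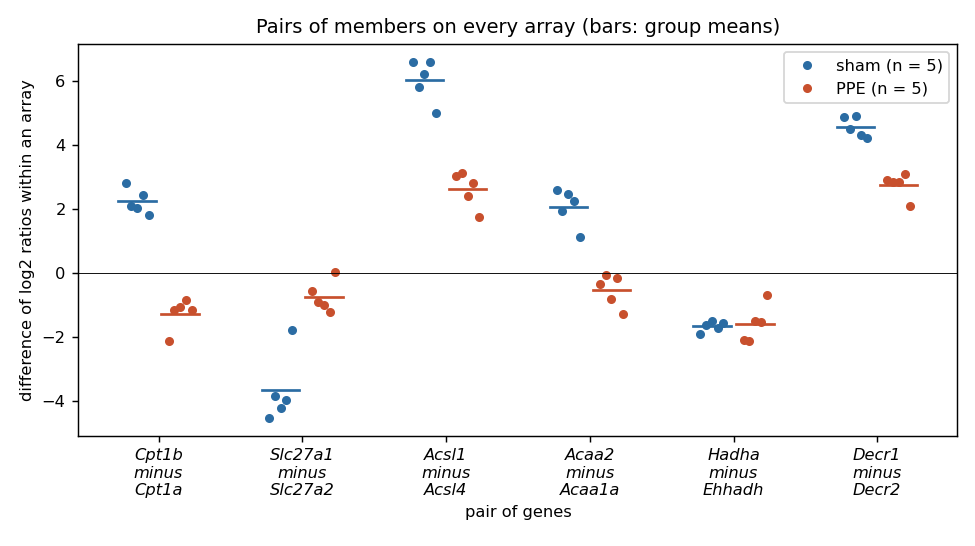
Difference of 2 log2 ratios within an array (y axis) for the 6 pairs, with a point for each of the 5 sham and 5 PPE arrays and bars at the group means. Groups are separated in every pair but Hadha minus Ehhadh (which shifted by 0.77 in the red channel alone), and Cpt1b minus Cpt1a crosses 0.

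A ratio depends on both dyes, and the green channel holds the same reference RNA on every array, so each dye was also compared on its own after quantile normalisation. For 36 of the 40 members the green signal differed between groups by less than 0.3 log2 units. No member was called in green by limma (6 had an unadjusted p under 0.05), and over all names 0.426% were called lower in green. The 4 others were Ppara (-1.13, adjusted p = 0.0126), Ehhadh (-0.85, adjusted p = 0.0471), Cpt1b (-0.66, adjusted p = 0.0256) and Acat1 (-0.30, adjusted p = 0.143), each lower in green as well as in red. For these 4 the ratio understates the fall of the red signal, which was -3.92 for Ppara, -2.12 for Ehhadh, -3.50 for Cpt1b and -1.52 for Acat1. In the red channel alone, 29 members were called lower (12.6% of all names), including Acot4 (-0.94) and Hsd17b4 (-0.66), and 2 higher.

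Larger green differences were found in some genes outside the members. Ucp1, the uncoupling protein of brown fat, differed by -6.82 in red and -4.6 in green, Cidea, a droplet protein of brown fat, by -6.19 and -4.39, and Myh11, a smooth muscle myosin, by -3.82 and -3.25. Hence the ratio of Myh11 differed by -0.74 and was not called (adjusted p = 0.206). Bright reference spots were among those that differed, such as the smooth muscle genes Smtn (green -1.01) and Cnn1 (green -1.69), and the green signal of the macrophage gene Aif1 was higher in PPE (2.03, adjusted p = 0.00201). Faint reference spots went both ways. The faintest of the members in green, Slc27a2 (-0.08), Acot4 (0.03) and Acsl6 (0.07), differed little. The faint brown fat gene Elovl3 (-0.54) and smooth muscle gene Lmod1 (-0.53) were called lower in green. Why a common reference differed between groups for these genes was not tested.

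**Figure D4:**
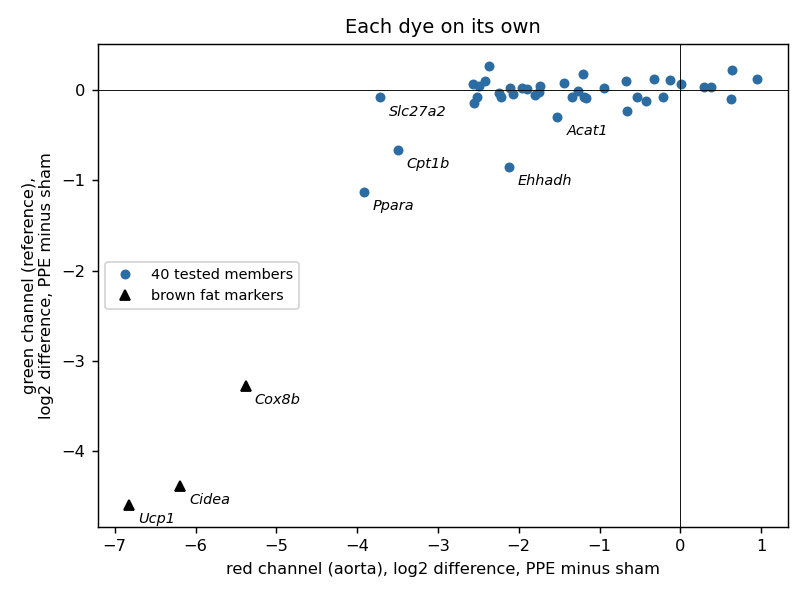
Log2 difference PPE minus sham in the red channel (aorta, x axis) and in the green channel (reference, y axis), for the 40 tested members (circles) and 3 brown fat markers (triangles). Most members lie near 0 in green, and Ppara, Ehhadh and Cpt1b lie between -0.66 and -1.13, while Ucp1 reaches -4.6.

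Other genes of the pathway are given from lists taken whole. Of 27 genes that supply fat or control its use, 15 were lower and 2 higher, with a median of -1.15. The heart-type fatty acid binding protein Fabp3 fell by 4.91, Pdk4, which spares glucose for fat use, by 3.23, Ucp1 by 2.94, and the droplet protein Plin5 by 2.86, while the uncoupling protein genes Ucp2 (2.07) and Ucp3 (1.82) were higher. Of 24 tested further oxidation enzymes, 11 were lower and 0 higher (1 at an unadjusted p under 0.05), with a median of -0.82. The acyl-CoA dehydrogenase gene Acad11 fell by 1.74, the peroxisomal transporter Abcd3 by 1.39 and the peroxisomal reductase Pecr by 1.31. With median centring, 1 of the 27 genes was called lower and 0 higher, with a median of -0.46 (-0.87 relative to all names). The 24 further enzymes then had 0 called (1 lower at an unadjusted p under 0.05) and a median of -0.23 (-0.64 relative to all names).

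Genes that build the organelles had medians nearer 0 than that of the mitochondrial members. Of 15 tested peroxisome genes, 5 were lower and 0 higher (0 at an unadjusted p under 0.05), with a median of -0.54, led by Pex11a, which makes peroxisomes divide (-1.25), and the assembly genes Pex16 (-0.81), Pex13 (-0.75) and Pex10 (-0.64). Of 24 general mitochondrial genes, 9 were lower and 0 higher (1 at an unadjusted p under 0.05), with a median of -0.38, led by the citrate synthase gene Cs (-1.34), the fusion gene Mfn2 (-1.13) and the chaperone genes Hspa9 (-1.10) and Hspd1 (-1.03). These medians are set beside -1.87 for the mitochondrial members and -0.39 for the peroxisomal members as a description, with no test between lists. By median, the peroxisome genes lay farther below 0 than the peroxisomal members. With median centring the peroxisome and general mitochondrial medians turned to 0.06 and 0.28 (-0.35 and -0.13 relative to all names), and 0 genes of either list were called or had an unadjusted p under 0.05.

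Markers of several cell types moved with the members. All 9 brown fat markers were lower in PPE, with a median of -2.40. Their mean log2 ratio was 4.01 to 5.24 in sham and 1.56 to 2.94 in PPE, and their summed red signal was 210013 to 352907 in sham and 3512 to 15658 in PPE. Elovl3, a fatty acid elongase of brown fat, was not well above background on any PPE array. Of 10 smooth muscle markers 8 were lower (median -1.80), and 10 in the red channel alone. With median centring 0 brown fat and 0 smooth muscle markers were called by limma (4 and 3 lower at an unadjusted p under 0.05). Their medians were then -1.31 and -0.96 (-1.71 and -1.37 relative to all names). Of 10 general fat cell markers, 1 was lower (Pnpla3, -1.76, with 5 lower at an unadjusted p under 0.05), with a median of -0.74, and their mean ratio overlapped between groups (4.57 to 5.66 in sham, 3.64 to 5.16 in PPE). That median turned to 0.18 with median centring. In the red channel alone, however, 9 of the 10 were called lower, with a median of -1.51, and their summed red signal did not overlap, at 658452 to 904333 in sham and 233481 to 408548 in PPE. The adipocyte lipid binding protein gene Fabp4, for one, fell by 1.24 in red.

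Of 10 macrophage markers 9 were higher (median 2.27), and their mean ratio rose from 0.51 to 1.04 in sham to 2.61 to 3.61 in PPE. With median centring 3 macrophage markers were called higher, with a median of 2.81. Of 9 tested skeletal muscle markers 0 were called by limma (0 at an unadjusted p under 0.05), and their mean ratio varied widely in both groups, from 1.09 to 4.38 in sham and from 0.78 to 4.12 in PPE. Of 5 tested cardiac markers, 1 was lower (Tnnt2, -1.09) and 1 higher (Tnni3, 0.97), and 0 were called with median centring. Of 8 endothelial markers 0 were called (3 at an unadjusted p under 0.05). The part of brown fat, general fat, smooth muscle and macrophage content in the lower values of the members was not tested.

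**Figure D5:**
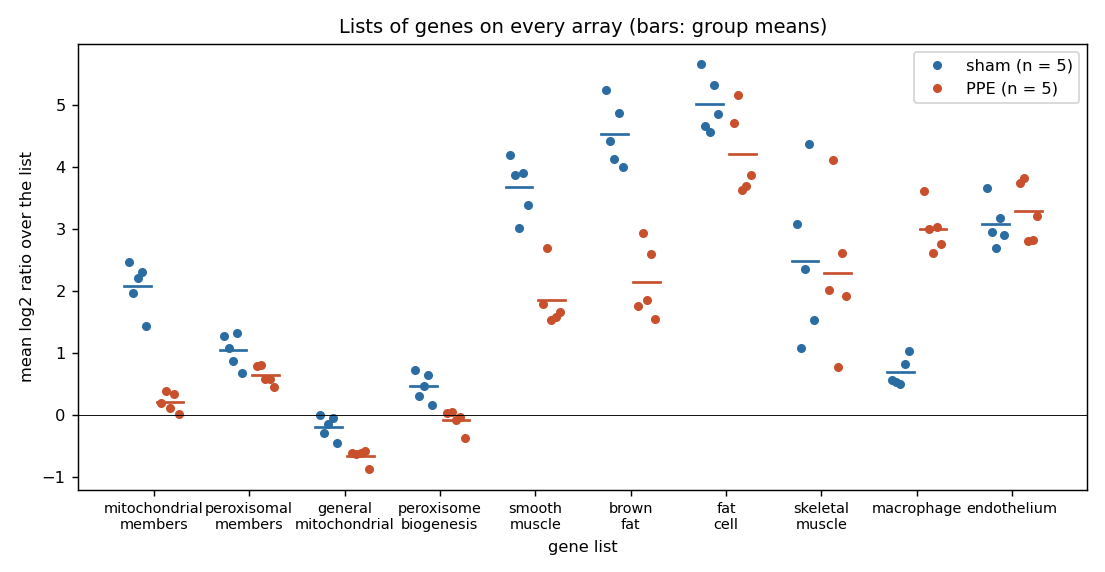
Mean log2 ratio of aorta over reference across the tested genes of each list (y axis), with a point for each of the 5 sham and 5 PPE arrays and bars at the group means. The mitochondrial member, general mitochondrial, peroxisome biogenesis, smooth muscle and brown fat lists are lower on every PPE array than on any sham array. The macrophage list is higher. The peroxisomal member, endothelium, fat cell and skeletal muscle lists overlap (the summed red signal of the fat cell list did not).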

How the data were processed

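Total RNA of 10 aortas, 500 ng each and not pooled, was hybridised to 2-colour Agilent arrays. The authors deposited scanner files from Agilent Feature Extraction 10.7.3.1 with mean spot intensity per channel and a log10 ratio of red over green, and a value table whose log2 values equalled processed red over green on 100% of spots (tolerance 1e-04). Its column medians ran from -0.16 to 0.12. The dyes were not swapped, so a dye effect common to all arrays cancels between groups. Probe positions are in mm9. The study had already dropped poorly hybridised arrays and those that clustering marked as outliers.

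Intensities were background-corrected (normexp, offset 50) and loess-normalised within each array with control spots at weight 0, in limma 3.58.1 (R 4.3.3). Outlier-flagged spots (176 to 331 an array) were dropped, spots of a probe averaged, and each name represented by its brightest tested probe. No spot was saturated. PPE and sham were compared with lmFit and eBayes, unpaired, with Benjamini-Hochberg adjustment over 22520 names at 0.01. The study's methods used SAM at the same rate, which was not run here. Scripts were tested on simulated data. The number of arrays limits the precision.

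The members, pairs and lists were chosen with earlier results of these data known. Array values are given for the 10 called members with the largest decrease, the called members with an increase and both members of each pair, and up to 4 genes are named from each other list, by the largest change among those called, except 1 gene that is not reported here. Ucp2, Ucp3, Myh11 and the single called fat cell and cardiac markers were named after their values were seen. Alternatives were median centring, Aquantile, an offset of 16, the deposited ratios, other filters on dim probes, the mean of probes, slide and replicate blocks and each array left out. The scan day block, the loss of both arrays numbered 5 and the single channels were added after seeing the data. Promoter sequence is from RefSeq. Member promoters not in that table were not used here.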

Additional observations from a re-analysis of the deposited data

Results flagged for a closer look

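Of 84 groups of 5 arrays (a named member, pair or list in 1 group), 6 held an array whose gap to its nearest neighbour exceeded 0.71 of the group's range, and chance alone gives such a gap in about 1 group of 20. Cpt1b minus Cpt1a was lowest on PPE 1 (-2.14, next -1.17). Slc27a1 minus Slc27a2 stood apart on sham 5 (-1.80, next -3.85). Decr1 minus Decr2 was lowest on PPE 5 (2.08, next 2.84). The mean log2 ratio of the general mitochondrial list was lowest on PPE 5 (-0.87, next -0.63), that of the smooth muscle list was highest on PPE 2 (2.69, next 1.79), and that of the cardiac muscle list was highest on sham 5 (1.68, next 0.63).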

How the results depend on the processing

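Median centring changed most: 1 member lower and 0 higher, 0 mitochondrial, 0 peroxisomal and 0 muscle or brown fat members lower by limma (9, 1 and 2 at an unadjusted p under 0.05), 8 names lower and 408 higher, and 6 members without a call turned (Acaa1a to 0.69, Acaa1b 0.42, Hsd17b4 0.30, Decr2 0.20, Acot1 0.14 and Acsl3 0.04). 19 mitochondrial members still lay below 0. Hadha minus Ehhadh turned to -0.04 there, to -0.16 without PPE 5 and to -0.13 without both arrays numbered 5, and was 0.77 in red alone (adjusted p = 0.0238). Peroxisomal members lower numbered 0 with no filter on dim probes (3 at an unadjusted p under 0.05), 3 with the slide block or red alone, 2 with the replicate block, the scan day block or without both arrays numbered 5, and 0 to 2 with 1 array left out. Acaa1b also turned without PPE 5 (0.03) and Acsl6 without sham 5 (-0.03). The mean of probes left 1 member higher. The wider isoform list had 5 lower. With 1 array left out, 25 to 28 members were lower, 2 to 3 higher and 18 to 19 mitochondrial members lower, and of all names 1752 to 2348 were lower and 2514 to 3615 higher.

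Replicate numbers only name arrays: same-numbered deviations correlated at 0.291, -0.299, 0.163, -0.137 and 0.516. With the replicate block 28 members were lower and 3 higher. Under this pairing the pairs kept their shifts (-3.51, 2.93, -3.42, -2.60, -1.81), but 5 sign flips allow no exact p under 0.0625, and the adjusted p was 0.075.

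For the 19 members given by array, 410 of the values under the alternatives kept their direction and side of the threshold, 24 only their direction, and 2 turned. Aquantile leaves the log ratios unchanged, so its values equal the main ones by construction. The deposited value table closely repeats the deposited ratios. Since the 410 include these settings, they overstate independent agreement.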
